A study of Mus musculus with 12 samples.

Results

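The 10 genes described here encode the Vegf ligands Vegfa, Vegfb, Vegfc and Vegfd, the Vegf receptors Kdr, Flt1 and Flt4, the angiopoietins Angpt1 and Angpt2, and the angiopoietin receptor Tek. They were taken by symbol from a table of 55228 genes, and all 10 were found and passed the filter on low counts. Messenger RNA was sequenced from the mouse proepicardium (PE), a transient outgrowth near the inflow of the heart, at E9.5, and from the embryonic epicardium (EE), the outer cell layer to which it gives rise, at E10.5. Each stage had 3 libraries, labelled as distinct samples of several pooled embryos. Whole PE was dissected by hand whereas EE cells were sorted by FACS, and the effects of stage and of collection cannot be told apart. All embryos were of the strain labelled Wt1Cre-EGFP, which the methods name Wt1GFP/+, and none was treated. The gate of the sort is not given in the sources used here. The EE3 mRNA library stood apart, with the lowest total and 18763 genes detected against 22186 to 24842 in the others, and without it 5 of the 10 genes were called in place of 4. In pooled tissue, fewer cells of a type and less RNA per cell cannot be told apart.

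Vegf ligands and angiopoietins are secreted proteins that act on receptor tyrosine kinases found mainly on endothelial cells, the lining of vessels and of the heart chambers. Vegfa binds Kdr, the main signalling receptor of blood vessel growth, and Flt1, which binds it tightly and also exists as a soluble form that traps it. Vegfc and Vegfd act through Flt4, the receptor of lymphatic growth, and Angpt1 activates Tek (also known as Tie2), whereas Angpt2 can oppose or activate it according to context. Epicardial cells are a known source of signals for the growing coronary vessels.

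The called ligands differed in direction between the stages. Of the 10 genes, 2 ligand genes (Vegfa and Vegfd) were higher in EE, 2 (the ligand Angpt1 and the receptor Flt4) were higher in PE, and 6 were not called. The test was edgeR's quasi-likelihood test over 23853 genes, and a call needed a fold change over 1.5 and an adjusted p (Benjamini-Hochberg) under 0.05. Among all genes tested, 9.38% were called in either direction, 4.86% as higher in PE and 4.52% as higher in EE. The stages did not overlap for 6 of the 10 genes, against 31.9% of all genes tested. The median log2 fold change, always given as EE over PE, was -0.14 for the 10 genes and -0.06 for all genes tested. Levels are CPM, the counts of a gene brought to a common library total, here scaled by TMM factors.

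**Figure D1:**
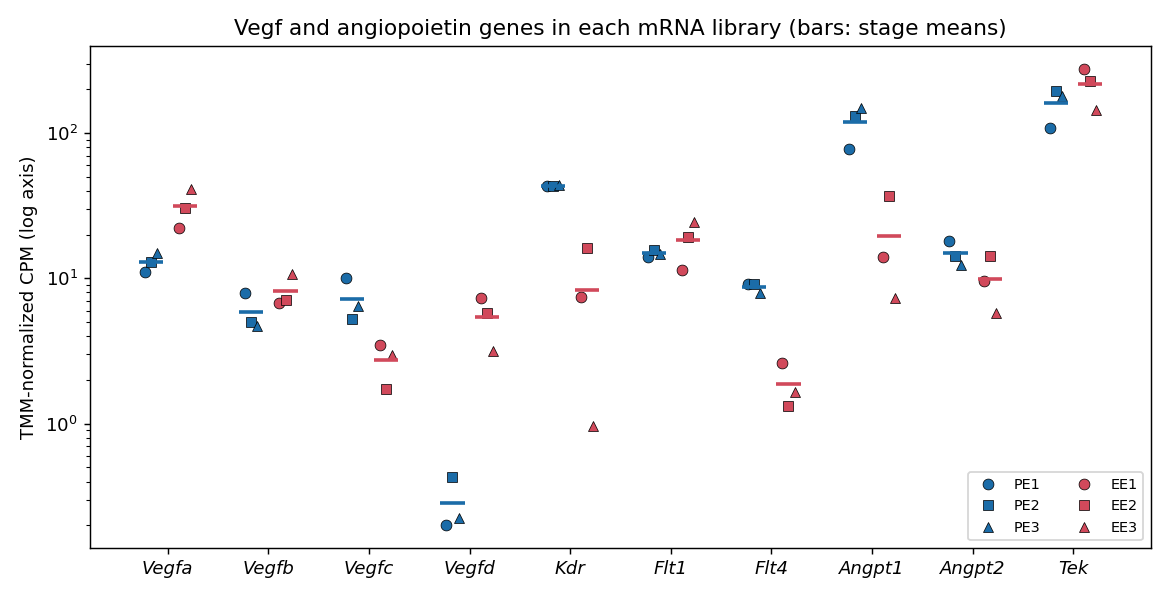
TMM-normalized CPM (log axis) of the 10 genes in each of the 3 PE and 3 EE mRNA libraries, with points for libraries and bars for stage means. Vegfd lies between 0.201 and 0.429 CPM in PE and between 3.14 and 7.28 CPM in EE, Angpt1 lies lower in EE, and Tek is the highest of the 10 genes in the EE libraries.

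Among the Vegf ligands, Vegfd (also known as Figf), a ligand of Flt4, had the largest change of the 10 genes. It had 5, 11 and 6 counts in PE1, PE2 and PE3 and 168, 131 and 55 counts in EE1, EE2 and EE3. These amount to 0.201, 0.429 and 0.225 CPM in PE and to 7.28, 5.81 and 3.14 CPM in EE, so that the lowest EE library lay above the highest PE library. The log2 fold change was 4.22 with a standard error of 0.565 (edgeR, adjusted p = 0.0019), an 18.7-fold difference. Vegfd was called under each of the 13 alternative settings tried, with an adjusted p of at most 0.0109.

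Vegfa, the chief growth factor of blood vessel formation, was at 11.0, 12.9 and 15.0 CPM in the PE libraries and at 22.4, 30.4 and 41.3 CPM in the EE libraries. The stages did not overlap, and EE3 held the highest level. The PE mean was 12.96 ± 1.98 CPM (SD, n = 3) and the EE mean 31.4 ± 9.48 CPM (SD, n = 3). The log2 fold change was 1.27 with a standard error of 0.283 (edgeR, adjusted p = 0.0221). This call was lost when PE1 (adjusted p = 0.0556), PE2 (adjusted p = 0.0768), PE3 (adjusted p = 0.0570) or EE2 (adjusted p = 0.0558) was left out. Vegfb, a ligand of Flt1 alone among the 3 receptors, was at 7.93, 5.04 and 4.72 CPM in PE and 6.72, 7.14 and 10.7 CPM in EE. Its stages overlapped, and its log2 fold change was 0.47 (95% interval -0.31 to 1.25, adjusted p = 0.462).

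Vegfc, the other ligand of Flt4, had the opposite sign to Vegfd. It was at 10.03, 5.27 and 6.41 CPM in PE and at 3.47, 1.73 and 2.97 CPM in EE. All 3 EE libraries lay below all PE libraries. The log2 fold change was -1.41 (standard error 0.416), and its adjusted p of 0.0659 from edgeR missed the threshold. With DESeq2 (adjusted p = 0.00898), without TMM factors (adjusted p = 0.0467) and with no filter (adjusted p = 0.0404) Vegfc passed. The ratio of Vegfd counts to Vegfc counts within a library was 0.0201, 0.0815 and 0.0351 in PE and 2.10, 3.36 and 1.06 in EE. It was higher in each EE library than in each PE library. This had to be so, since Vegfd and Vegfc each separated the stages, in opposite directions. The exact two-sided permutation test could thus give only p = 0.10, the smallest that 3 against 3 libraries allow. No adjustment over the ratios given here could bring such a p under the threshold.

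Of the 3 Vegf receptors, Flt4 alone was called. Kdr (Vegfr2) was at 43.3, 43.3 and 43.8 CPM in PE and at 7.50, 16.3 and 0.970 CPM in EE. The PE libraries were nearly equal, whereas EE2 was high and EE3 low, with 367 and 17 counts. The stages did not overlap, but the spread within EE left the log2 fold change of -2.39 (standard error 0.691, 95% interval -3.94 to -0.84) at an adjusted p of 0.0610 from edgeR. Kdr passed without EE3 (log2 fold change -1.87, adjusted p = 0.0102), without EE2 (log2 fold change -3.34, adjusted p = 0.0393) and with no filter (adjusted p = 0.00156). In EE3, 7 of 18 endothelial markers were at a count of 0, among them Robo4, Erg and Tal1, against 2 in EE1 and 1 in EE2. The summed level of 12 blood cell markers was also low there, at 628 CPM against 4870 and 8719 CPM in EE1 and EE2. The part of these values in the result was not tested.

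Flt4 (Vegfr3) was higher in PE. It was at 9.10, 9.14 and 7.87 CPM in PE and at 2.60, 1.33 and 1.65 CPM in EE. Every EE library lay below every PE library, and the log2 fold change was -2.22 with a standard error of 0.378 (edgeR, adjusted p = 0.00644). Flt4 was called under each of the 13 alternative settings, with an adjusted p of at most 0.0295. Flt1 (Vegfr1), by contrast, was at 14.1, 15.8 and 14.6 CPM in PE and at 11.5, 19.4 and 24.3 CPM in EE. Its stages overlapped, and its log2 fold change was 0.31 (95% interval -0.37 to 0.98, adjusted p = 0.590). The counts of a gene do not separate the soluble form of Flt1 from the membrane receptor.

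Of the angiopoietins, Angpt1, the activating ligand of Tek, was higher in PE. It was at 77.2, 130.6 and 149.6 CPM in PE and at 13.9, 37.0 and 7.36 CPM in EE. The highest EE library, EE2, lay below the lowest PE library, PE1. The PE mean was 119.1 ± 37.5 CPM (SD, n = 3) and the EE mean 19.4 ± 15.6 CPM (SD, n = 3). On the log2 scale the change was -2.61 with a standard error of 0.528 (edgeR, adjusted p = 0.0142). The call was lost without EE1 (adjusted p = 0.0590), and without EE2 the change was -3.49 (adjusted p = 0.0050). A gene on the other strand, Gm17473, overlaps 14.2% of the exon bases of Angpt1, and it had 2 to 37 counts per library where Angpt1 had 129 to 3991. The highest count of Gm17473, 37, and the lowest of Angpt1, 129, were both in EE3. Angpt2 was at 17.96, 14.2 and 12.4 CPM in PE and at 9.62, 14.2 and 5.82 CPM in EE, with overlapping stages and a log2 fold change of -0.59 (95% interval -1.37 to 0.20, adjusted p = 0.343). Within a library the ratio of Angpt1 counts to Angpt2 counts was 4.30, 9.22 and 12.0 in PE and 1.45, 2.62 and 1.26 in EE. Each EE ratio lay below each PE ratio (exact two-sided permutation test, p = 0.10, the smallest possible).

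Tek, the receptor of both angiopoietins, was at 109.1, 195.3 and 178.8 CPM in PE and at 276.8, 226.6 and 144.8 CPM in EE. Its stages overlapped, since EE3 lay below PE2 and PE3. The log2 fold change was 0.42 (95% interval -0.22 to 1.07, adjusted p = 0.410 from edgeR), and none of the 13 alternative settings called it. Tie1, the partner receptor with which Tek forms a complex on endothelial cells, was in contrast at 31.9, 53.1 and 37.9 CPM in PE and at 4.55, 6.39 and 1.03 CPM in EE. edgeR gave a log2 fold change of -3.35 with a standard error of 0.542 (adjusted p = 0.00506). The ratio of Tek counts to Tie1 counts was 3.42, 3.68 and 4.72 in PE and 60.8, 35.5 and 141 in EE, with no overlap of the stages (exact two-sided permutation test, p = 0.10, the smallest possible).

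**Figure D2:**
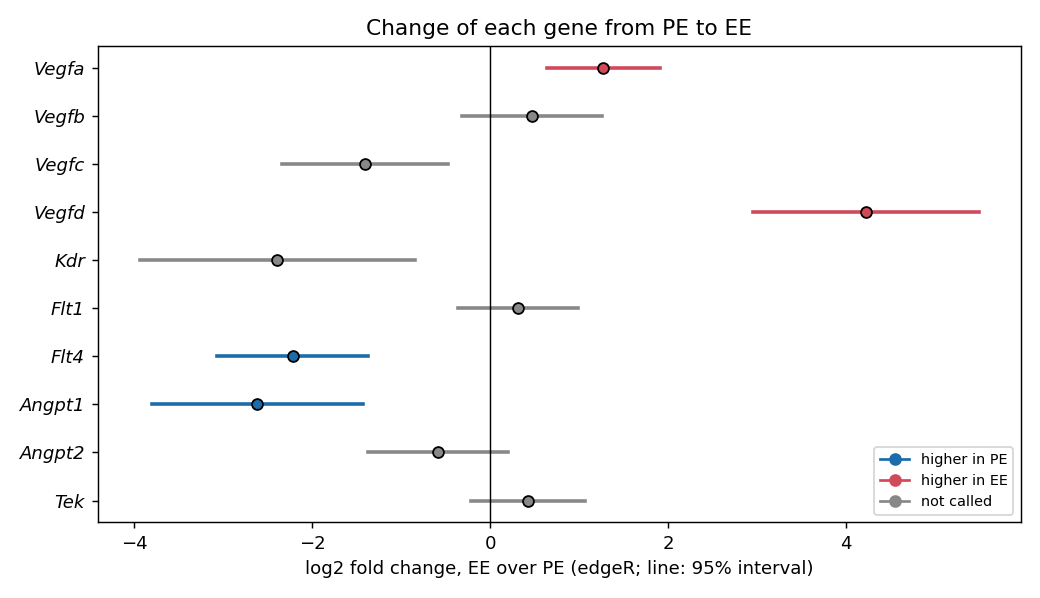
Log2 fold change of each of the 10 genes, EE over PE, from edgeR, with lines for 95% intervals and colours for the call. Vegfa and Vegfd are called as higher in EE, Flt4 and Angpt1 as higher in PE, and the intervals of Vegfb, Flt1, Angpt2 and Tek include 0.

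Levels of different genes were compared as CPM per kilobase of annotated exon, with GENCODE gene models of GRCm38, the build of the study. Tek was the highest of the 10 genes in each library, at 34.2 ± 9.71 CPM per kilobase (SD, n = 3) in PE and 45.9 ± 14.1 in EE. In PE it was followed by Angpt1 at 22.9 ± 7.21 CPM per kilobase, and the ranges of these genes overlapped across the PE libraries. Kdr at 4.81 ± 0.0353, Angpt2 at 4.03 ± 0.765, Vegfb at 3.67 ± 1.10, Vegfa at 3.02 ± 0.462 and Vegfc at 2.95 ± 1.01 CPM per kilobase came next in PE, each overlapping its neighbour. Flt1 at 1.10 ± 0.0636 and Flt4 at 1.06 ± 0.0876 overlapped as well, and Vegfd at 0.118 ± 0.0521 CPM per kilobase was apart from the rest. In EE the order after Tek was Vegfa at 7.32 ± 2.21, Vegfb at 5.09 ± 1.35, Angpt1 at 3.73 ± 3.00, Angpt2 at 2.67 ± 1.13, Vegfd at 2.25 ± 0.873, Flt1 at 1.36 ± 0.479, Vegfc at 1.11 ± 0.365, Kdr at 0.914 ± 0.851 and Flt4 at 0.226 ± 0.0802 CPM per kilobase. Only Tek was apart from its neighbour there, since from Vegfa downwards each gene overlapped the next. Kdr thus went from the third place in PE to the ninth in EE, and Vegfa from the sixth to the second.

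The receptors are known mainly from endothelial cells, so they were set beside other markers of these cells. Of 18 endothelial markers, none of them among the 10 genes, 13 were called as higher in PE, 5 were not, and 0 were higher in EE by edgeR, by DESeq2 or at an unadjusted p under 0.05, with a median log2 fold change of -2.40. In the leave-one-out fits between 8 and 13 were higher in PE. The summed level of the 18 markers was 536.1 to 616 CPM in PE and 136.0 to 210.1 CPM in EE. Egfl7, a secreted endothelial factor, had a PE mean of 143.9 ± 11.7 CPM (SD, n = 3) and an EE mean of 42.3 ± 2.76 CPM, and Esam, an endothelial adhesion molecule, went from 106.4 ± 1.66 to 22.1 ± 7.00 CPM. Emcn and Ramp2, further genes of vessel lining, had log2 fold changes of -2.01 and -1.44 (edgeR, adjusted p = 0.0108 and 0.0251). The call of Emcn was lost without EE2 (adjusted p = 0.0567), and that of Ramp2 with limma (adjusted p = 0.0660) and without EE1, EE2 or EE3 (adjusted p = 0.0769, 0.0612 and 0.0538). Ecscr and Icam2 did not pass, with -0.44 and -0.81. Cldn5, the endothelial claudin, was at a count of 0 in the 3 EE libraries. Pecam1 and Cdh5, adhesion molecules that define endothelial cells and that were picked after their values were seen, had log2 fold changes of -2.78 (adjusted p = 0.00180 from edgeR) and -2.58 (adjusted p = 0.00371). Over the 18 markers the log2 fold change ran from -10.02 for Cldn5 to -0.13 for Tal1.

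The level of each receptor was then divided by the mean CPM of the 18 endothelial markers of its own library, a measure that no scaling between libraries can alter. For Tek the log2 of this ratio was 1.67, 2.71 and 2.55 in PE and 4.57, 4.52 and 4.26 in EE, a difference of 2.14. For Flt1 it was -1.28, -0.92 and -1.06 in PE and -0.02, 0.98 and 1.69 in EE, a difference of 1.96. In both genes every EE library lay above every PE library. For Flt4 the difference was -0.56 without overlap. For Kdr the log2 ratio was 0.34, 0.54 and 0.53 in PE and -0.64, 0.72 and -2.96 in EE, a difference of -1.43 with overlap of the stages. With the median in place of the mean of the markers the differences were 3.02 for Tek, 2.84 for Flt1, -0.55 for Kdr and 0.32 for Flt4, so that the sign of Flt4 depends on that choice. The exact two-sided permutation test gave p = 0.10 for Tek, Flt1 and Flt4, the smallest possible, and p = 0.40 for Kdr. Per kilobase, Tek lay above all 18 endothelial markers in PE2 and in the 3 EE libraries, while 5 markers lay above it in PE1 and 1 in PE3. In EE1, EE2 and EE3, Tek alone was at 276.8, 226.6 and 144.8 CPM. The 18 markers summed to 210.1, 177.4 and 136.0 CPM there, whereas in PE their sum lay above Tek. The ratios are thus not receptor levels per endothelial cell, and which cells held Tek and Flt1 was not tested.

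**Figure D3:**
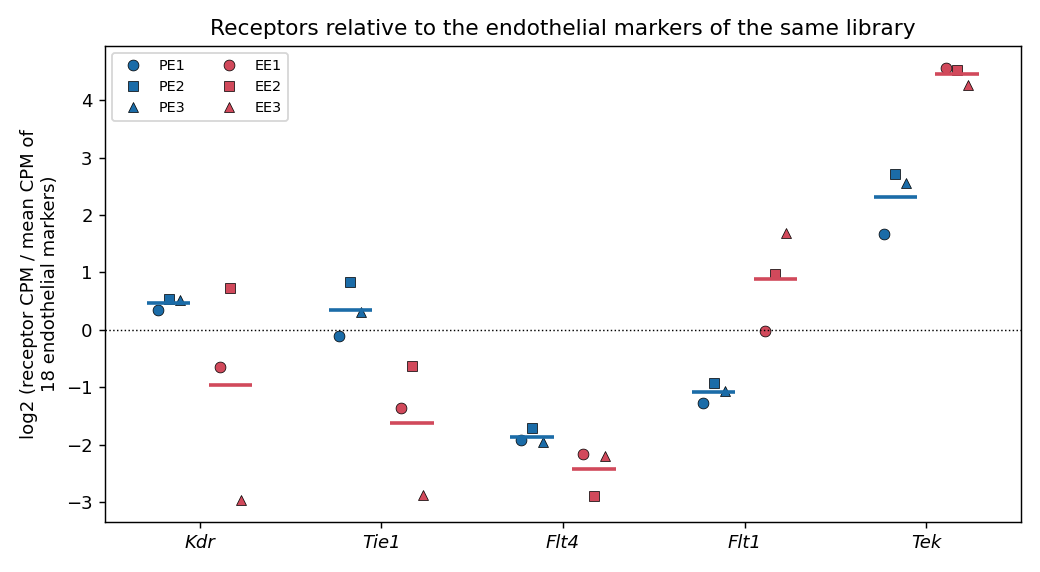
Log2 of the CPM of each receptor over the mean CPM of 18 endothelial markers in the same library, with points for libraries, bars for stage means and a dotted line where both are equal. Tek and Flt1 lie higher in each EE library than in each PE library, Tie1 lies lower, and Kdr overlaps.

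A second readout of endothelial RNA came from the small RNA libraries, which held 35576 to 152075 counts. miR-126a lies in an intron of Egfl7, is made by endothelial cells, and is known to enhance their response to Vegf. Its mature 3p arm is shown with the arm of miR-126b that lies across from it on the other strand of chromosome 2 (RefSeq, GRCm38.p6), since both had identical counts in all 6 libraries. Capitals mark the seed, bases 2 to 8.
miR-126a-3p: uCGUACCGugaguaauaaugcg
miR-126b-5p: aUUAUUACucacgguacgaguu
These counts cannot be told apart by strand, so they are given once. miR-126a-3p had 1076, 663 and 561 counts in PE and 15, 8 and 97 counts in EE, which amount to 7336, 5970 and 5218 CPM and to 249.3, 145.7 and 2381 CPM. The stages did not overlap, as for 50.5% of the miRNAs tested, and EE3 held far more than the other EE libraries, whereas the EE3 mRNA library was the lowest for Kdr. The log2 fold change was -2.75 (standard error 1.05) and did not pass (adjusted p = 0.0851 from edgeR, over 295 miRNAs). Without EE3 it was -4.94 (adjusted p = 0.00159) and without PE3 it was -3.03 (adjusted p = 0.0105), so it passed in each of these edgeR fits. miR-126a-5p and miR-126b-3p, which also had identical counts and are given once under the first name, had 50, 38 and 15 counts in PE and 0 counts in the 3 EE libraries, where a floor of 3 counts allows 49.9 to 73.6 CPM. It was at least 3.72-fold lower in EE than its PE mean of 274.2 CPM, set against the highest of these floors per library, which cover counting error only. It was called as higher in PE (adjusted p = 0.0276), as were 28.1% of the miRNAs tested, and the call was lost without PE1 (adjusted p = 0.0663) and with no filter (adjusted p = 0.0720), among other settings.

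Of 7 further ligands and receptor partners, Tie1 was the 1 called, higher in PE, and 6 missed the threshold. Nrp1, the neuropilin that binds Vegfa beside Kdr, had a PE mean of 401.1 ± 85.2 CPM (SD, n = 3) and an EE mean of 410.3 ± 78.3 CPM. Its log2 fold change, 0.03 (edgeR, adjusted p = 0.948), turned its sign with library size alone. Nrp2, the partner of Flt4, was at 19.4 ± 0.572 and 24.5 ± 5.68 CPM. Pgf, a ligand of Flt1, had means of 39.6 ± 3.47 CPM (PE) and 56.9 ± 10.4 CPM (EE), with no overlap but an adjusted p of 0.161. Angpt4, a further Tek ligand, was at 4.93 ± 3.48 and 10.1 ± 0.775 CPM (adjusted p = 0.196), and passed without PE1 (log2 fold change 1.79, adjusted p = 0.0194). Ptprb, the phosphatase that acts on Tek, and Svep1, an extracellular protein of lymphatic vessel growth, had log2 fold changes of 0.03 and -0.14 (adjusted p = 0.973 and 0.858), and both turned their sign when a library was left out.

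Vegfc and Vegfd are secreted as precursors and gain activity by proteolytic cleavage. Of 7 genes of this processing, 2 were called as higher in EE and 5 missed the threshold. Pcsk5, a proprotein convertase, was at 5.60, 6.17 and 6.67 CPM in PE and at 67.7, 68.6 and 94.1 CPM in EE. All EE libraries lay far above all PE libraries, with a log2 fold change of 3.64 with a standard error of 0.242 (edgeR, adjusted p = 6.11e-05). Adamts14, a metalloprotease related to the Vegfc-cleaving Adamts3, had 2.16 on the log2 scale (adjusted p = 0.0470), a call lost when any 1 of the 6 libraries was left out. Adamts3 itself, added after its values were seen, had the opposite sign and was not called. It was at 2.01, 0.781 and 1.61 CPM in PE and at 0.564, 0.577 and 0 CPM in EE. Its stages did not overlap (log2 fold change -1.91, adjusted p = 0.258 from edgeR). The median log2 fold change of the 7 genes was -0.11. Ccbe1, the cofactor of Vegfc cleavage, had means of 12.8 ± 4.23 CPM (PE) and 12.5 ± 1.84 CPM (EE), with an adjusted p of 0.951. Pcsk7, a further convertase, did not pass either (log2 fold change -0.54).

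Of 13 proteins that carry or damp the signal inside the cell, 0 were called by edgeR and 1 by DESeq2, and 2 had an unadjusted p under 0.05, both lower in EE. The median log2 fold change was -0.25, and the adaptor Nck1 and the endocytic protein Epn2 had 0.15 and -0.24. Of 8 genes that respond to Vegf in endothelial cells, 3 were called as higher in PE, 1 as higher in EE, and 4 missed the threshold. Nos3, the endothelial nitric oxide synthase, had a PE mean of 15.6 ± 0.681 CPM (SD, n = 3) and an EE mean of 1.91 ± 1.22 CPM (adjusted p = 0.00661 from edgeR, log2 fold change -3.01). The potassium channel subunit gene Kcne3 and the homeobox gene Hlx had log2 fold changes of -4.14 and -3.38, and the call of Hlx was lost without PE1 or EE2. Rcan1, a feedback inhibitor of calcineurin that is expressed in many cell types, was the 1 gene higher in EE, with a log2 fold change of 1.19 (adjusted p = 0.00956). Unc5b, a netrin receptor of vessels, had 0.46 on the log2 scale (adjusted p = 0.261). Dll4, the Notch ligand of sprouting tip cells, was at 2.44 ± 0.244 and 0.293 ± 0.288 CPM and did not pass (log2 fold change -3.00, adjusted p = 0.0617). It passed with DESeq2 (adjusted p = 0.00128), with limma (adjusted p = 0.00925), with the filterByExpr filter (adjusted p = 0.0457), with no filter (adjusted p = 0.0144) and without EE3 (log2 fold change -2.46, adjusted p = 0.0186).

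Low oxygen is known to raise Vegfa, and 14 genes of this response were counted beside it. Of these, 3 were called as higher in PE (5 with DESeq2 or without TMM factors), 1 as higher in EE, and 10 missed the threshold. Adm, which encodes the vascular peptide adrenomedullin, had a PE mean of 127.5 ± 30.9 CPM (SD, n = 3) and an EE mean of 15.9 ± 4.66 CPM. On the log2 scale the change was -3.00 with a standard error of 0.297 (edgeR, adjusted p = 0.000413). Bnip3 and Ndrg1 had log2 fold changes of -1.50 and -1.90 (adjusted p = 0.00879 and 0.00828). Car9, a carbonic anhydrase, was the 1 gene called in the direction of Vegfa, with a log2 fold change of 2.24 (adjusted p = 0.00603). Ldha, the most abundant of the list, had means of 8498 ± 1124 CPM (PE) and 5946 ± 339 CPM (EE) and did not pass (adjusted p = 0.0943), nor did Aldoa (log2 fold change -0.12).

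Other cell types differed between the stages in the same libraries, and their part in the results was not tested. Of 12 epicardial markers, 12 were higher in EE, where their summed level was 5751 to 7877 CPM against 689.7 to 745.0 CPM in PE. Of 14 cardiomyocyte markers 7 were higher in EE (9879 to 15733 CPM in sum, against 4799 to 7636 in PE), and of 14 hepatoblast markers 13 were higher in PE (3897 to 7037 CPM in sum, against 143.2 to 561.5 in EE). Ahsg, a hepatoblast marker, was at a count of 0 in the 3 EE libraries. Of 12 blood cell markers, 2 were higher in EE, the macrophage receptor gene Csf1r and the chemokine gene Pf4, and the sum ranged from 2952 to 7636 CPM in PE and from 628 to 8719 CPM in EE. Of 10 smooth muscle and pericyte markers 1 was higher in each stage (1527 to 2164 CPM in sum in PE and 1355 to 2205 in EE), and of 4 endocardial and lymphatic markers Npr3 was higher in EE and Prox1, which liver progenitors also express, in PE (62.1 to 72.7 CPM in sum in PE and 60.0 to 62.3 in EE). Among 12 genes of the immediate early and dissociation response, 8 were called as higher in EE, with a summed level of 55.4 to 90.8 CPM in PE and 477 to 1298 CPM in EE.

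The start regions of the genes were searched on both strands for short motifs of factors known from endothelial genes and from low oxygen. RefSeq windows of GRCm38.p6, each 300 bases long and ending shortly after a start site, were found for 8 of the 10 genes, with 9 windows in all. Angpt1, which was called, and Angpt2 had no window and were not searched. The letters ACGTG are the core of the hypoxia response element, and 19.6% of all 32851 windows held them. The letters CAGGAAG, read by factors of the ETS family, were in 13.3% of windows. The forkhead motif GTAAACA was in 3.65% of windows. The motif AGATAAG, named for the factors that bind its core, was in 3.04% of windows. Across the 9 windows 1 held ACGTG, that of a second Vegfa start site inside the gene, and 1 held AGATAAG, that of Tek. The windows of the called genes Vegfd, Vegfa and Flt4 are shown on the strand of the gene, with matches in capitals, and that of Tek is added for its match, seen before it was chosen. Vegfd is at chrX:164373272-164373571 (+), Vegfa at chr17:46032328-46032627 (-) for the start of the gene and at chr17:46025114-46025413 (-) for the inner start site, Flt4 at chr11:49609429-49609728 (+) and Tek at chr4:94739039-94739338 (+).
Vegfd: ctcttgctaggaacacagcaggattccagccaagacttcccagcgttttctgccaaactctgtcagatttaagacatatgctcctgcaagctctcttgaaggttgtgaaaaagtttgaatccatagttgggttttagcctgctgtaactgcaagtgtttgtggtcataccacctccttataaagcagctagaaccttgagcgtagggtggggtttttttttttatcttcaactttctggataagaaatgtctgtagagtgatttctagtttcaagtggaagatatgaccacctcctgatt
Vegfa, start of the gene: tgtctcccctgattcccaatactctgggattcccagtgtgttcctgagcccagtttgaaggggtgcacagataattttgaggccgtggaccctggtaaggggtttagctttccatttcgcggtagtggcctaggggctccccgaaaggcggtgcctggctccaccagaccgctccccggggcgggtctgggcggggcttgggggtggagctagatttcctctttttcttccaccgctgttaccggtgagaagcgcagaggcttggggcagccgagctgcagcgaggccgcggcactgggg
Vegfa, inner start site: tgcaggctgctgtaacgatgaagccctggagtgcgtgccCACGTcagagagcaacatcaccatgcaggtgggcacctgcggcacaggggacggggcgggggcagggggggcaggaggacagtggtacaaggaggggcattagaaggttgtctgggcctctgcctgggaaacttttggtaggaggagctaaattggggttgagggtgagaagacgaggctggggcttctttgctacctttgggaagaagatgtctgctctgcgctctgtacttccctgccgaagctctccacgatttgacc
Flt4: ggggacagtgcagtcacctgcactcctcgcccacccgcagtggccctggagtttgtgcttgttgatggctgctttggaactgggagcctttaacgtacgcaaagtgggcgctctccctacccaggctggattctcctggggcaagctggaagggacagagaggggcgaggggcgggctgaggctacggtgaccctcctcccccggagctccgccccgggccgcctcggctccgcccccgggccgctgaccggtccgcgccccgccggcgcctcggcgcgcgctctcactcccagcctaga
Tek: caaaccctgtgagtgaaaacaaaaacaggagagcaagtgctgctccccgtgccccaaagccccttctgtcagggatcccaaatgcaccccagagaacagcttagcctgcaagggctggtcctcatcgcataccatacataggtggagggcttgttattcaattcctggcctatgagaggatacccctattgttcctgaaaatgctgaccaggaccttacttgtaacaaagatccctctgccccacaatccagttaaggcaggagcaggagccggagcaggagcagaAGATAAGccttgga
The match in Tek begins at base 37, with the start site counted as base 1. That in Vegfa lies on the reverse strand, so that its reverse complement is in capitals. A match or its absence in these windows describes their letters only.

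**Figure D4:**
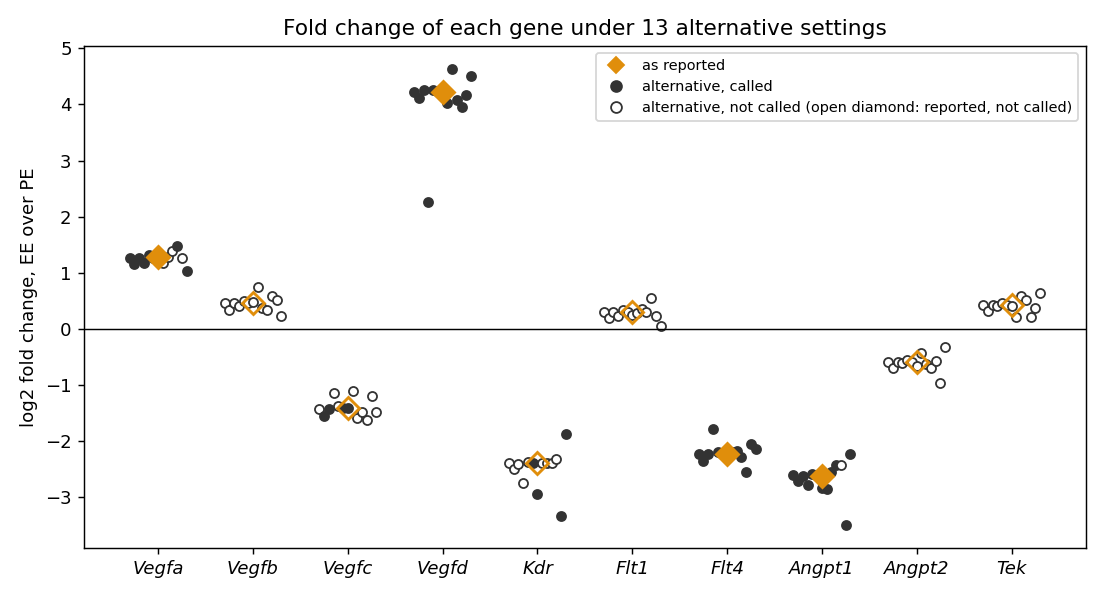
Log2 fold change of each of the 10 genes, EE over PE, as reported (diamonds) and under 13 alternative settings (circles), filled where the gene was called. Vegfd and Flt4 are filled throughout, Vegfa and Angpt1 lose their call under 4 and 1 settings, and Kdr and Vegfc gain one under 4 settings each.

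In GRCm38 (GENCODE), Vegfa lies on chromosome 17 from 46016993 to 46032369, Vegfb on chromosome 19 from 6982473 to 6987651, Vegfc on chromosome 8 from 54077606 to 54187096 and Vegfd on chromosome X from 164373378 to 164402650. Kdr and Flt1 lie on chromosome 5, from 75932827 to 75978458 and from 147561604 to 147726011, and Flt4 lies on chromosome 11 from 49609263 to 49652739. Angpt1 lies on chromosome 15 from 42424723 to 42676977, Angpt2 on chromosome 8 from 18690263 to 18741562 and Tek on chromosome 4 from 94739289 to 94874976. Apart from Angpt1, 0 of their exon bases overlap an exon of another gene. The cDNA kit, SMART-Seq v4, does not mark the strand.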

How the data were processed

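Messenger RNA and small RNA were sequenced from 3 PE and 3 EE samples each. The authors deposited whole-number counts per gene and per mature miRNA, not normalized. The methods name RSEM (mm10 transcriptome) for mRNA, while HISAT2 and featureCounts are named for miRNAs. The submitters' notes name other mRNA tools, Trim Galore (0.4.3.1), STAR and featureCounts, so the counter of the mRNA table is not settled. Columns named for epicardium-derived cells were taken as the EE samples of equal number. The mRNA libraries held 18464362 to 25814015 counts.

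TMM factors and the quasi-likelihood test of edgeR 4.0.16 (R 4.3.3) were applied. Genes needed 1 count or more in 3 or more libraries, and miRNAs needed this in every library of 1 stage, as in the study. The standard error is the absolute log2 fold change over the square root of F. The fit was tested on simulated counts. Single ratios took exact permutation tests, and the ratios between the counts of genes were not planned.

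The genes and lists were chosen with earlier results of these data known. The rule for named genes took the 10 genes, all receptor partners and, from each other list, up to 4 called and up to 2 uncalled genes with the highest level. The text gives part of these. Alternatives were RLE factors, library size alone, DESeq2 1.42.0, limma 3.58.1 on log2(CPM + 1), the filterByExpr filter, no filter, a replicate block, and leaving out single libraries. Promoters were read for all genes with a window, though the rule named called genes. A planned comparison of protein sequences was not made. Figures were made with Python 3.11.15 and matplotlib 3.10.9.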

Additional observations from a re-analysis of the deposited data

How the results depend on the processing

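Of 130 fold changes (10 genes under 13 alternatives), 0 changed sign, 5 lost a call (Vegfa 4, Angpt1 1) and 8 gained one (Kdr and Vegfc, 4 each). The number of these genes called was 4 as reported, 6 with no filter, and between 3 and 5 when 1 library was left out. Among pathway genes 11 were called as reported and 10 to 12 with a library left out, and among cell type markers 59 and 48 to 60. Over all genes, calls higher in PE and in EE were 1159 and 1078 as reported, 1894 and 1716 with DESeq2, 1500 and 927 with library size alone, 470 and 595 without PE2, and 501 and 563 without PE3. Library size alone moved the median log2 fold change of all genes from -0.06 to -0.18. miR-126a-3p passed with DESeq2 (log2 fold change -2.75, adjusted p = 0.0398) and with no filter (-3.34), and ranged from -4.94 to -2.24 with a library left out. The mean log2 difference of the 4 receptors per endothelial marker was 0.53, was 1.41 with the median of the markers, and ranged from 0.36 to 0.67 with a library left out. That mean joins opposite signs, 2.14 for Tek and 1.96 for Flt1 against -1.43 for Kdr and -0.56 for Flt4. With a library left out, Tek ranged from 1.82 to 2.34 and Flt1 from 1.56 to 2.42. Kdr ranged from -2.27 to -0.43 and Flt4 from -0.68 to -0.32. The cause was not tested.

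Signs turned near 0. With library size alone the log2 fold change was -0.0788 for Nrp1 and -0.0833 for Ptprb, and with limma it was 0.00064 for Ccbe1. With a library left out, Nrp1 ranged from -0.13 to 0.18, Ptprb from -0.14 to 0.23, Svep1 from -0.52 to 0.12 and Ccbe1 from -0.28 to 0.19.

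Between mRNA libraries of equal replicate number the correlations of deviations were low, at -0.125, 0.0690 and -0.0227. Each library correlated best with another number, PE1 with EE3 (0.187), PE2 with EE1 (0.225) and PE3 with EE2 (0.104). Deviations from means of 3 libraries cannot exclude a pairing. With the replicate number as a block, 6 of the 10 genes were called, with Kdr (-2.93 on the log2 scale, adjusted p = 0.000690) and Vegfc (-1.41, adjusted p = 0.0444) added. In that block fit Dll4 (-3.37, adjusted p = 0.0189) and miR-126a-3p (-3.90, adjusted p = 0.0296) passed, and the calls of miR-126a-5p (adjusted p = 0.228) and Adamts14 (adjusted p = 0.0958) were lost. The block gave Ccbe1 a log2 fold change of 0.0024. For the receptors per endothelial marker the block value is by arithmetic the same 0.53, so it tests nothing. The calls of other named genes in the block fit were not all read singly. Of the cell type markers 65 were called with the block, against 59 as reported.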

Other observations

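Over the 6 mRNA libraries, the log2(CPM + 1) of 13616 genes with at least 1 CPM on average was compared with that of Kdr and of the called ligands by Pearson's r, as a description of likeness, since the libraries fall into 2 stages and share their depth. Closest to Vegfd were Timp3, an inhibitor of matrix metalloproteases (r = 0.999), Gm33321 (r = 0.996), Cybrd1 (r = 0.996), Prokr2 (r = 0.995) and Gm26902 (r = 0.995), each called as higher in EE. Closest to Angpt1 were Abcd2 (r = 0.999), S1pr1, a receptor for sphingosine 1-phosphate (r = 0.998), Ldlrad3 (r = 0.998), Dnaja3 and Dnajc28 (each r = 0.996). Of these, S1pr1 and Ldlrad3 were called as higher in PE, with log2 fold changes of -1.06 each. Closest to Kdr was Efna1, an ephrin ligand gene (r = 0.998), followed by Samsn1, Ccdc151, Pknox1 and Galnt16 (r from 0.993 to 0.995), each of which missed the threshold. Closest to Vegfa were Cdyl (r = 0.998), Cdk6 (r = 0.996), Sec62 (r = 0.995), Padi2 (r = 0.994) and Tpd52 (r = 0.993), of which Cdk6, Padi2 and Tpd52 were called as higher in EE.

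A within-library ratio of Vegfa counts to Kdr counts was 0.254, 0.298 and 0.341 in PE and 2.98, 1.87 and 42.5 in EE. The stages could not overlap, since Vegfa and Kdr each separated them, in opposite directions. The exact two-sided permutation test could thus give only p = 0.10, the smallest possible. The highest ratio, in EE3, rests on 17 counts of Kdr.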
